A study of Danio rerio with 2 samples.

Results

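The genes described here are the DNA replication and S phase genes of the zebrafish tailbud: 42 symbols chosen by name, from the proteins that mark replication origins to the enzymes that supply deoxynucleotides. All 42 symbols were among the 27771 features of the count tables. One of them, rrm2, named 2 rows with different identifiers, so that the 42 symbols took up 43 rows, and these 2 rows are described apart from the 41 other members. The members were chosen by name and not by a limit on a measured value, but with earlier results of these data known.

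Before a cell copies its DNA, the origin recognition complex (orc1), cdc6 and cdt1 load the Mcm2-7 helicase onto chromatin, a step called licensing. At the start of S phase cdc45, the GINS complex (gins1 to gins4) and mcm10 turn the loaded helicase into an active one, DNA polymerases alpha, delta and epsilon copy the opened strands, and the sliding clamp pcna, opened by its loader (rfc1 to rfc5), holds the polymerases on the template while replication protein A (rpa1 to rpa3) covers single strands. Transcripts of most of these genes rise under E2F control as cells enter S phase, which makes them common markers of proliferating cells. The tailbud is the growing posterior end of the embryo, in which cycling progenitors give rise to spinal cord, somites and notochord, and in which some daughters leave the cell cycle as muscle or neurons.

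Single cells from pooled, dissected tailbuds were captured in droplets (10x Genomics), with 1 library of stag2b-/- embryos (the labels give the genotype as stag2b NZ207) and 1 of wild-type embryos, both at 16 hpf. stag2b encodes a subunit of cohesin, the ring complex that holds sister chromatids together, and the mutants were homozygous by the study's methods, with no treatment in either group. Sources differ on the wild-type embryos, which are AB in the labels and WIK in the study's methods, and on the version of the droplet chemistry. The strain background of the stag2b-/- embryos is not stated in the study's methods, so strain may also differ between the libraries. Each library was a pool of embryos and stands for 1 sample, so that no test between genotypes was made. Genotype, any difference in strain, pool and library cannot be told apart.

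The deposited values were counts of unique molecular identifiers (UMIs), which count transcript molecules rather than amplified reads. The stag2b-/- library held 26360 barcodes and the wild-type library 18704, and 23410 and 17440 cells were kept after filtering, with median depths of 13270 UMIs in stag2b-/- and 15282.5 UMIs in wild type. UMIs were summed over cells and given per 1000000 UMIs of the same cells (CPM). The intervals in parentheses are exact 95% intervals for counting error alone and hold no variation between embryos or libraries. Transcript ends were counted without regard to length, so levels of different genes are not compared. The targeted gene, stag2b (ENSDARG00000053668), had 59.6 CPM in stag2b-/- cells and 107 CPM in wild-type cells, a log2 ratio of -0.85, all ratios of genotypes being of stag2b-/- to wild type. The median of the 21352 genes with at least 50 UMIs stood at 0.16 on the log2 scale, so that a gene that moved with most genes stood at 0.16 rather than at 0.

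A minority of cells in each library carried the expression profile of the other one. They were found with 40 genes, the 20 furthest higher and the 20 furthest lower in stag2b-/- among genes of at least 20 CPM, members and stag2b left out. These genes were chosen on the same libraries, so the split describes the cells and tests nothing. Among cells with at least 10 UMIs of the panel, 224 of 16248 in the stag2b-/- library (1.38%, 1.21 to 1.57%) had under 40% of these UMIs from the genes higher in stag2b-/-, and 605 of 13731 in the wild-type library (4.41%, 4.07 to 4.76%) had at least 40%. stag2b itself, not among the 40 genes, followed the profile. It had 94.1 CPM in the 224 cells against 61.9 CPM in the other scored cells of the stag2b-/- library, and 65.9 CPM in the 605 cells against 112 CPM in the other scored cells of the wild-type library. The libraries shared 96 barcodes among kept cells, of which 1 was among the 224 cells and 3 were among the 605. Where these cells came from was not tested. Results over all kept cells are therefore given with them and, for the summed members, mcm7, dut and rrm2, without them. The 7162 stag2b-/- and 3709 wild-type cells under 10 panel UMIs were not scored and stayed in.

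Over all kept cells the 41 members other than rrm2 had 1028669 UMIs in stag2b-/- and 1001885 UMIs in wild type, or 3272 CPM in stag2b-/- and 3777 CPM in wild type. The summed level was lower in stag2b-/- by a log2 ratio of -0.21 (-0.21 to -0.20). The median member stood at -0.14, and 38 of the 41 members lay below the median gene of all genes tested, while 27 lay below 0. Of the 41, 2 members passed a 1.5-fold difference, mcm7 and rfc4, both lower in stag2b-/-, and 0 members were 1.5-fold higher. Over all genes tested, 11.8% were 1.5-fold or more lower and 21.2% were 1.5-fold or more higher in stag2b-/-. With the library sizes of the TMM method, which shift every ratio by -0.15, 11 of the 14 members above 0 turned negative, and orc1, cdc6 and pole remained above 0. These 3 were also the members above the median gene. Without the cells of the other library's profile the summed log2 ratio was -0.21, and rfc3 became the third member to pass 1.5-fold.

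**Figure D1:**
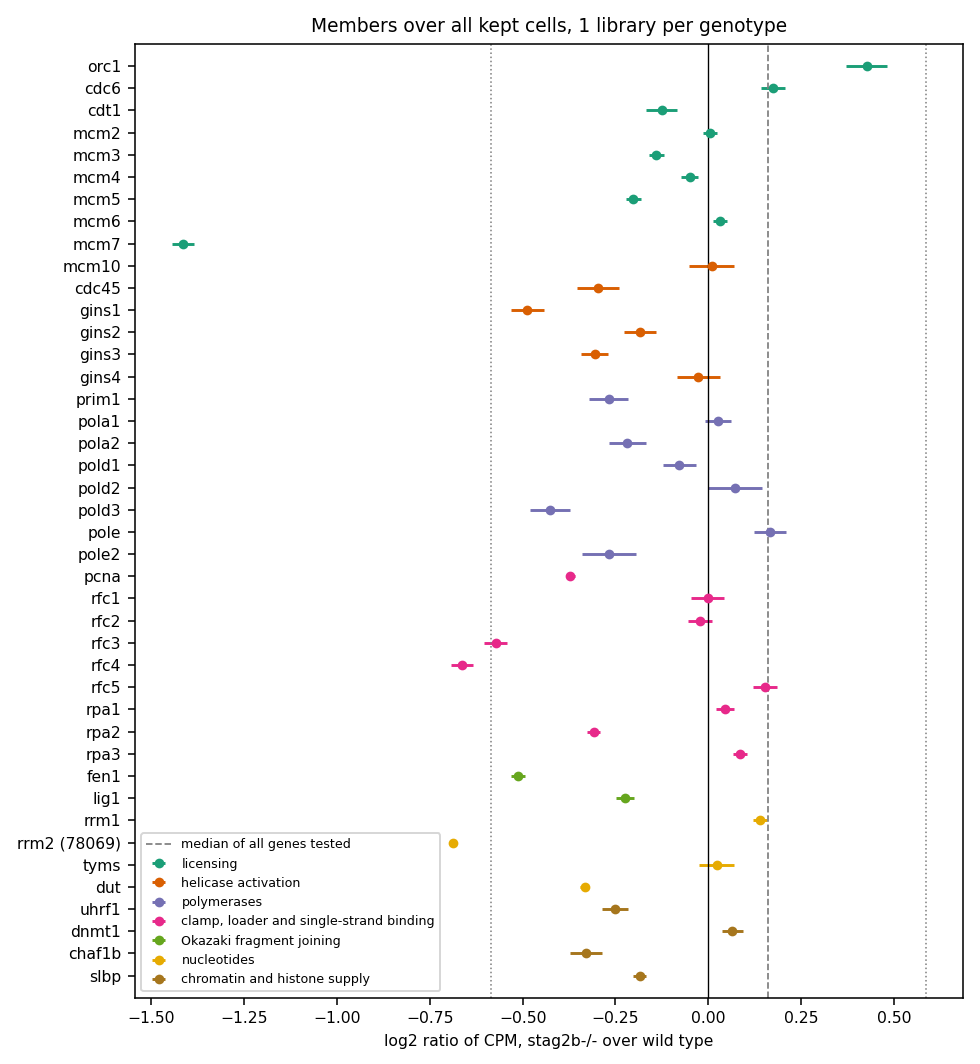
Log2 ratio of CPM (stag2b-/- over wild type, horizontal axis) for each member row over all kept cells, grouped by role (colours), with 95% counting intervals as bars; the dashed line is the median of all genes tested (0.16) and dotted lines mark 1.5-fold. mcm7 lies far to the left at -1.41 while the other Mcm2-7 subunits lie between -0.20 and 0.03; rrm2 (78069) is row ENSDARG00000078069, and the second rrm2 row, at 4.22, is off the scale and not drawn.

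Among the licensing genes, mcm7, a subunit of the replicative helicase, had 13250 UMIs in stag2b-/- and 29781 UMIs in wild type. Its level was 42.1 CPM in stag2b-/- cells (41.4 to 42.9) and 112 CPM in wild-type cells (111 to 114), a log2 ratio of -1.41 (-1.44 to -1.38). The other subunits of the same ring did not move with it. mcm5 had a log2 ratio of -0.20 and mcm3 of -0.14, mcm4 stood at -0.05, mcm2 at 0.00 and mcm6 at 0.03 (-0.12 with TMM). mcm7 was lower by more than 1.5-fold in all 13 cell classes described below, by log2 ratios between -1.14 in hand2+ lateral mesoderm and -1.96 in segmenting anterior presomitic mesoderm. Of all genes tested, 3.78% had a ratio as low as that of mcm7.

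mcm7 also followed the profile of single cells. In the stag2b-/- library it had 87.6 CPM in the 224 cells with the wild-type profile and 39.0 CPM in the other scored cells. In the wild-type library it had 60.5 CPM in the 605 cells with the stag2b-/- profile and 111 CPM in the other scored cells. Without both sets of cells its log2 ratio was -1.46.

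At the other end of the licensing group, orc1, the largest subunit of the origin recognition complex, had 22.0 CPM in stag2b-/- cells and 16.3 CPM in wild-type cells, a log2 ratio of 0.43 (0.37 to 0.48), the highest of the 41 members. It was higher in stag2b-/- in 11 of the 13 classes, and 8 of these intervals lay above 0. cdc6, which helps to load the helicase, stood at 0.17 (0.14 to 0.21), near the median gene. Its ratio was above 0 in all 13 classes, as was the median gene of each class, and its interval lay above 0 in 7. cdt1, the loading factor that is destroyed once S phase begins, stood at -0.13 (-0.17 to -0.08).

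The 6 genes of helicase activation all lay below the median gene, with a summed log2 ratio of -0.25 (-0.27 to -0.23). gins1, which encodes the Psf1 subunit of GINS, was the lowest, with 7621 UMIs in stag2b-/- cells and 9016 UMIs in wild-type cells, a log2 ratio of -0.49 (-0.53 to -0.44). gins3 stood at -0.31 and gins2 at -0.18, whereas the interval of gins4, the remaining subunit of this complex, spanned 0 (-0.09 to 0.03). cdc45 stood at -0.30 (-0.35 to -0.24) and mcm10, the highest of the group, at 0.01 (-0.05 to 0.07).

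Polymerase genes had the summed log2 ratio nearest to 0 of any role, at -0.09 (-0.11 to -0.07) over 8 genes. By median gene they did not differ least. Their median, at -0.15, lay further from 0 than those of licensing (-0.05), clamp, loader and single-strand binding (-0.02) and nucleotide genes without rrm2 (0.02). The medians of the remaining roles lay further from 0 than that of the polymerase genes. The accessory subunit of polymerase delta, pold3, was lowest, at 16.5 CPM in stag2b-/- cells and 22.2 CPM in wild-type cells, a log2 ratio of -0.43 (-0.48 to -0.37). The catalytic subunit of polymerase epsilon, pole, was highest, at 31.8 CPM in stag2b-/- cells and 28.4 CPM in wild-type cells, a log2 ratio of 0.17 (0.12 to 0.21). Its partner pole2 had a log2 ratio of -0.27, and prim1, the primase subunit that makes the RNA primer, had the same ratio to 2 decimals. pola2 stood at -0.22 and pold1 at -0.08, and the intervals of pola1 (-0.01 to 0.06) and pold2 (-0.00 to 0.14) reached 0.

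Clamp, clamp loader and single-strand binding genes divided within their complexes. Of the loader subunits, rfc4 had 52.9 CPM in stag2b-/- cells and 83.8 CPM in wild-type cells, a log2 ratio of -0.66 (-0.69 to -0.63), and rfc3 had 46.8 CPM in stag2b-/- cells and 69.6 CPM in wild-type cells, a log2 ratio of -0.57 (-0.60 to -0.54). Their partner rfc5 was above 0, at 58.1 CPM in stag2b-/- cells and 52.3 CPM in wild-type cells, a log2 ratio of 0.15 (0.12 to 0.18) that did not stay above 0 with TMM, and rfc1 and rfc2 had intervals that spanned 0. The clamp itself, pcna, had 397 CPM in stag2b-/- cells and 514 CPM in wild-type cells, a log2 ratio of -0.37 (-0.38 to -0.36). In the trimer of replication protein A, rpa2 stood at -0.31 (-0.33 to -0.29), while rpa1 stood at 0.05 and rpa3 at 0.08, both turning negative with TMM. The subunits of a complex thus differed more from one another than their counting intervals.

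Both genes of Okazaki fragment joining were lower in stag2b-/-. The flap endonuclease fen1, which trims the primer-bearing flap, had 125 CPM in stag2b-/- cells and 179 CPM in wild-type cells, a log2 ratio of -0.51 (-0.53 to -0.49). DNA ligase 1 (lig1), which seals the nick, stood at -0.22 (-0.25 to -0.20). Among nucleotide genes, the dUTPase gene dut, whose product keeps uracil out of DNA, stood at -0.33 (-0.34 to -0.32), or -0.35 without cells of the other library's profile, while tyms, which makes thymidylate, stood at 0.02 with an interval that spanned 0, and rrm1, the large subunit of ribonucleotide reductase, at 0.14 (0.12 to 0.16), or -0.014 with TMM. Of the genes of chromatin and histone supply, chaf1b, a subunit of the histone chaperone CAF-1, was lowest at -0.33 (-0.37 to -0.29), followed by uhrf1 at -0.25 and the histone mRNA-binding gene slbp at -0.18. dnmt1, the maintenance DNA methyltransferase, was highest at 0.06 (0.04 to 0.09), and was also below 0 with TMM.

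Genes with neighbouring roles that are not members were counted for comparison. Of 47 other replication and repair genes in the tables, 36 lay below the median gene, with a median log2 ratio of 0.04. One of them was 1.5-fold lower in stag2b-/-, the exonuclease gene exo1 at -0.82, and 1 was 1.5-fold higher, e2f1, which had 365 UMIs in stag2b-/- and 196 UMIs in wild type. Over 21 rows of mitosis genes the median was 0.13, and 12 lay below the median gene. The median member, at -0.14, was lower than both. Members and lists were chosen with earlier results of these data known, so this comparison describes the lists and tests nothing.

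rrm2, the small subunit of ribonucleotide reductase, which makes deoxynucleotides, is shown apart from the other members. Its 2 rows went in opposite directions. Row ENSDARG00000020711 had 23338 UMIs in stag2b-/- and 1059 UMIs in wild type, or 74.2 CPM in stag2b-/- and 3.99 CPM in wild type, a log2 ratio of 4.22 (4.13 to 4.31). Row ENSDARG00000078069 had 128075 UMIs in stag2b-/- and 174183 UMIs in wild type, or 407 CPM in stag2b-/- and 657 CPM in wild type, a log2 ratio of -0.69 (-0.70 to -0.68). Read by the first row, rrm2 was far higher in stag2b-/-; read by the second, or by the sum, it was lower. Summed, both rows had 482 CPM in stag2b-/- and 661 CPM in wild type, a log2 ratio of -0.46 (-0.47 to -0.45). Both rows carry the same symbol, and how reads were divided between them was not tested, so the value of either row alone is uncertain. Among reference gene names, rrm2 is a synonym of the protein-coding genes rrm2b and rrm2l. Whether the 2 rows are 1 gene was not tested, so the sum may not be the level of 1 gene. The related gene rrm2b (ENSDARG00000033367), a separate row that encodes another small subunit, stood at 0.38 (0.34 to 0.42).

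Row ENSDARG00000020711 took 15.4% of the UMIs of both rows in stag2b-/- (15.2 to 15.6%) and 0.604% in wild type (0.569 to 0.642%). In stag2b-/- this share was nearly even across classes, from 13.0% in periderm to 17.2% in segmenting anterior presomitic mesoderm. In wild type it was from 0.212% (0.110 to 0.370%) in segmenting anterior presomitic mesoderm to 1.36% (0.706 to 2.37%) in endothelial cells. Each of these shares rested on 12 UMIs of the row. Scored wild-type cells with the stag2b-/- profile ran from 1.01% in segmenting anterior presomitic mesoderm to 9.43% in basal epidermis. The row share in wild-type basal epidermis was 0.582%. How far these cells set the class shares was not tested. Among 1587 stag2b-/- cells with at least 20 rrm2 UMIs, the median cell had 15% of them in this row, with an SD of 7.45 percentage points, against 7.23 that binomial sampling of each cell alone gives. Of these cells, 53 (3.34%) had no UMI of the row. Among 2874 wild-type cells with at least 20 rrm2 UMIs, 2666 (92.8%) had none, and the SD was 2.63 percentage points against 1.41 from binomial sampling.

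The row share changed with the profile of the cells. The 224 cells with the wild-type profile in the stag2b-/- library had 2.83% of their rrm2 UMIs in this row (2.16 to 3.64%), against 15.7% in the other scored cells of that library. The 605 cells with the stag2b-/- profile in the wild-type library had 12.7% (11.8 to 13.6%), against 0.171% (0.151 to 0.194%) in the other scored cells. These 605 cells held 664 of the 1059 wild-type UMIs of the row. Without both sets of cells the log2 ratio of the row was 5.59, that of ENSDARG00000078069 was -0.72 and that of both rows together was -0.48. Cells that were not scored stayed in. In wild type they held 142 UMIs of the row, a share of 0.639% (0.538 to 0.753%).

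**Figure D2:**
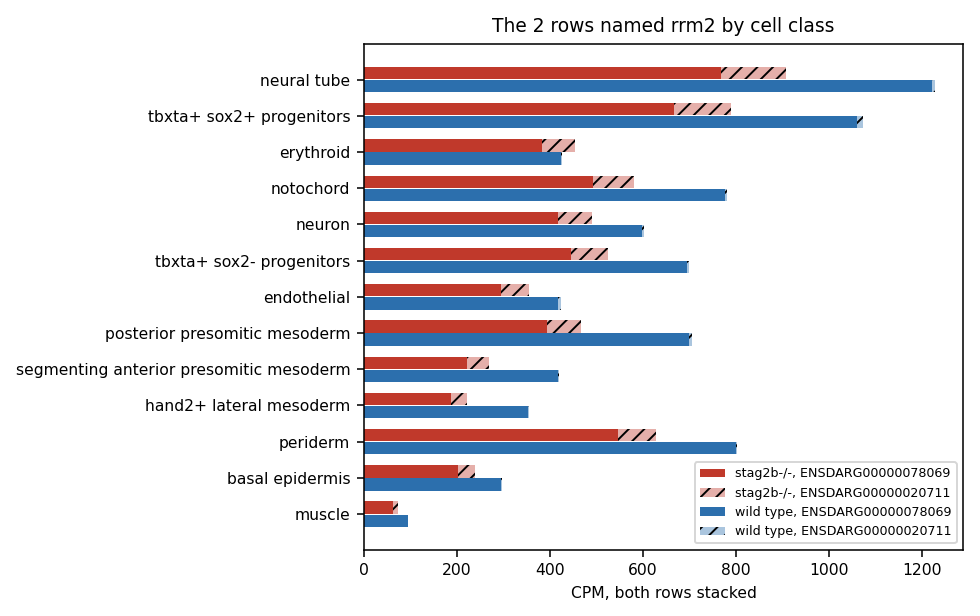
CPM of the rows ENSDARG00000078069 (solid) and ENSDARG00000020711 (hatched), stacked, in each cell class (stag2b-/- above wild type). The hatched part is 13.0% to 17.2% of the bar in every stag2b-/- class and at most 1.36% in wild type, and the whole bar is shorter in stag2b-/- in every class but erythroid.

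Summed over both rows, rrm2 was lower in stag2b-/- in 12 of the 13 classes, although the ratio turned positive in muscle without doublet removal (0.017) and, with gates on thinned UMIs, in muscle (0.26) and periderm (0.38). The exception was the erythroid class, with 455 CPM in stag2b-/- cells (439 to 471) and 426 CPM in wild-type cells (412 to 441), a log2 ratio of 0.09 (0.02 to 0.16), which was -0.016 when cells were averaged with equal weight. Row ENSDARG00000078069 alone was lower in stag2b-/- erythroid cells as well, at -0.15 (-0.22 to -0.08). Against the remaining cells of their own library, the sum of both rows stood at -0.08 (-0.13 to -0.03) in stag2b-/- erythroid cells and -0.65 (-0.70 to -0.60) in wild-type erythroid cells.

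Cell classes were set by gates on raw UMIs of marker genes, none of them a member, such as at least 2 UMIs of tbxta with at least 2 of sox2 for progenitors of the neuromesodermal kind. Of 15 classes gated, 13 had at least 3 further markers raised over the remaining cells in both libraries and are described. The gate for formed somite was left out because 2 of its 4 further markers were raised, and the gate for intermediate mesoderm met no cell. The smallest class was hand2+ lateral mesoderm, with 145 cells in stag2b-/- and 122 in wild type, and 31.8% of stag2b-/- and 31.7% of wild-type cells met no gate. A few markers went against their class: matn4 was not raised in notochord, nor tbx6 in posterior presomitic mesoderm, nor fgf8a in tbxta+ sox2- progenitors, nor sox1a in neural tube, and gata6 had no UMI in wild-type hand2+ lateral mesoderm.

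The classes differed far more than the genotypes. The summed members other than rrm2 were highest in the neural tube, at 5639 CPM in stag2b-/- cells and 6641 CPM in wild-type cells, and lowest in muscle, at 730 CPM in stag2b-/- cells and 759 CPM in wild-type cells. The highest class was thus 7.73-fold above the lowest in stag2b-/- and 8.75-fold in wild type. The order of the 13 classes was the same in both libraries. tbxta+ sox2+ progenitors came second, at 5067 CPM in stag2b-/- cells and 5779 CPM in wild-type cells, ahead of the tbxta+ sox2- progenitors, at 3645 CPM in stag2b-/- cells and 3892 CPM in wild-type cells. Within the paraxial lineage the classes described stood in the order of their stage, with the gate for formed somite not among them. There were 3039 CPM in stag2b-/- and 3523 CPM in wild-type cells of the posterior presomitic mesoderm, and 2016 CPM in stag2b-/- and 2619 CPM in wild-type cells of the segmenting anterior presomitic mesoderm, ahead of muscle. Posterior cells were shallower, with median depths of 10187 UMIs in stag2b-/- and 8943 in wild type. Segmenting cells had 14405 UMIs in stag2b-/- and 18192.5 in wild type. The intervals of neighbours in this order overlapped between hand2+ lateral mesoderm and periderm in both libraries (1999 and 1958 CPM in stag2b-/-, 2333 and 2319 CPM in wild type), and between segmenting anterior presomitic mesoderm and hand2+ lateral mesoderm in stag2b-/-.

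**Figure D3:**
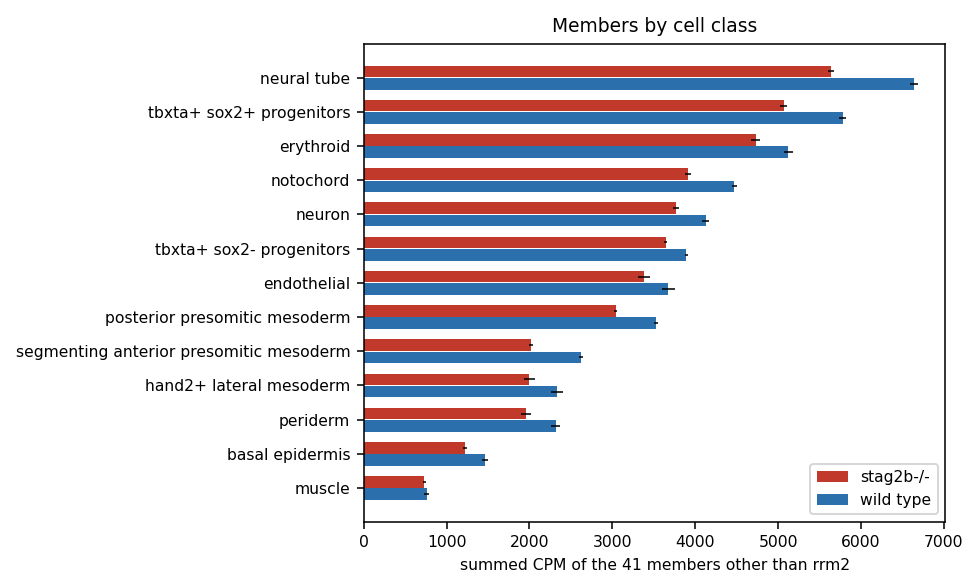
Summed CPM of the 41 members other than rrm2 in each of 13 cell classes (stag2b-/- above wild type), with 95% Poisson intervals as lines at the bar ends. Both libraries run in the same order, from the neural tube (5639 CPM in stag2b-/-, 6641 in wild type) to muscle (730 CPM in stag2b-/-, 759 in wild type).

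Per cell the classes overlapped. Cells with at least 5000 UMIs were thinned to 5000, and 2277 stag2b-/- and 1341 wild-type cells below this depth were left out. In periderm 85 of 221 stag2b-/- and 153 of 325 wild-type cells were left out. The median thinned neural tube cell had 27 member UMIs in stag2b-/- and 33 in wild type, and the median muscle cell had 2 in both. The neuron class ran from a 25th percentile of 6 to a 90th of 41 in stag2b-/- cells, and from 5 to 45.2 in wild-type cells. Notochord had a similar range, from 9 to 40 in stag2b-/- and from 10 to 42.7 in wild-type cells. At this depth pcna had at least 1 UMI in 94.0% of stag2b-/- and 95.7% of wild-type neural tube cells (98.7% in both without thinning), but in 18.6% of stag2b-/- and 14.7% of wild-type muscle cells (29.2% and 28.8% without thinning). Median depths before thinning were 13038 UMIs in stag2b-/- and 14058 in wild-type neural tube cells, and 15100.5 in stag2b-/- and 18366 in wild-type muscle cells. The muscle share was the lowest of the 13 classes in both libraries, and the part of free RNA in it was not tested.

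In the neural tube 38 of the 41 members were 1.5-fold or more above the remaining cells in stag2b-/-, and 38 in wild type, where 15.6% of all genes in stag2b-/- and 17.6% in wild type were. In tbxta+ sox2+ progenitors it was 28 members in stag2b-/- and 28 in wild type, against 11% of all genes in stag2b-/- and 11.9% in wild type. The member raised furthest in both classes was dnmt1, at 162 CPM in stag2b-/- neural tube cells against 68.1 CPM in the remaining stag2b-/- cells, and 164 CPM in wild-type neural tube cells against 64.8 CPM in the remaining wild-type cells. In muscle all 41 members were 1.5-fold or more below the remaining cells in both libraries, where 40.1% of all genes in stag2b-/- and 42.6% in wild type were. The same held in basal epidermis for all 41 members, against 31.4% of genes in stag2b-/- and 33% in wild type. In segmenting anterior presomitic mesoderm 30 of 41 members were lower in stag2b-/- and 16 of 41 in wild type, against 34.8% of genes in stag2b-/- and 37.2% in wild type. In hand2+ lateral mesoderm 29 members were lower in stag2b-/- and 25 in wild type (31.1% and 31.6% of genes), and in periderm 26 in stag2b-/- and 29 in wild type (34.6% and 36.2% of genes).

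Some members had a pattern of their own across classes. The erythroid class, primitive red cell precursors marked by gata1a, had 17 members raised 1.5-fold in stag2b-/- and 16 in wild type, against 18.6% of genes in stag2b-/- and 20.2% in wild type, and they were led by gins2, tyms and cdt1. gins2 had 83.1 CPM in stag2b-/- erythroid cells against 28.8 CPM in the remaining stag2b-/- cells, and 88.3 CPM in wild-type erythroid cells against 32.5 CPM in the remaining wild-type cells. tyms had log2 ratios of 1.37 in stag2b-/- and 1.41 in wild type in this class. cdt1 was at 70.6 CPM in stag2b-/- and 92.5 CPM in wild-type erythroid cells, and was also the member raised furthest in endothelial cells, by a log2 ratio of 0.90 in both libraries. dnmt1, the leading gene of the neural tube, was level with the remaining cells in the erythroid class, with intervals that spanned 0 in both libraries.

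In the notochord the leading member was cdc6, at 92.1 CPM in stag2b-/- notochord cells against 54.5 CPM in the remaining stag2b-/- cells, and 78.4 CPM in wild-type notochord cells against 47.5 CPM in the remaining wild-type cells, followed by orc1 with log2 ratios of 0.75 in stag2b-/- and 0.61 in wild type. In the posterior presomitic mesoderm the same pair was lowest, with orc1 at -0.52 in stag2b-/- and -0.71 in wild type and cdc6 at -0.48 in stag2b-/- and -0.61 in wild type. dut ran the other way, at 0.34 in stag2b-/- and 0.38 in wild type in the posterior presomitic mesoderm and -0.21 in stag2b-/- and -0.18 in wild type in the notochord. Periderm, the outer layer of the skin, was below the remaining cells for most members but not for rrm2, whose row ENSDARG00000078069 stood at 0.43 in stag2b-/- (0.34 to 0.51) and 0.29 in wild type (0.23 to 0.35).

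**Figure D4:**
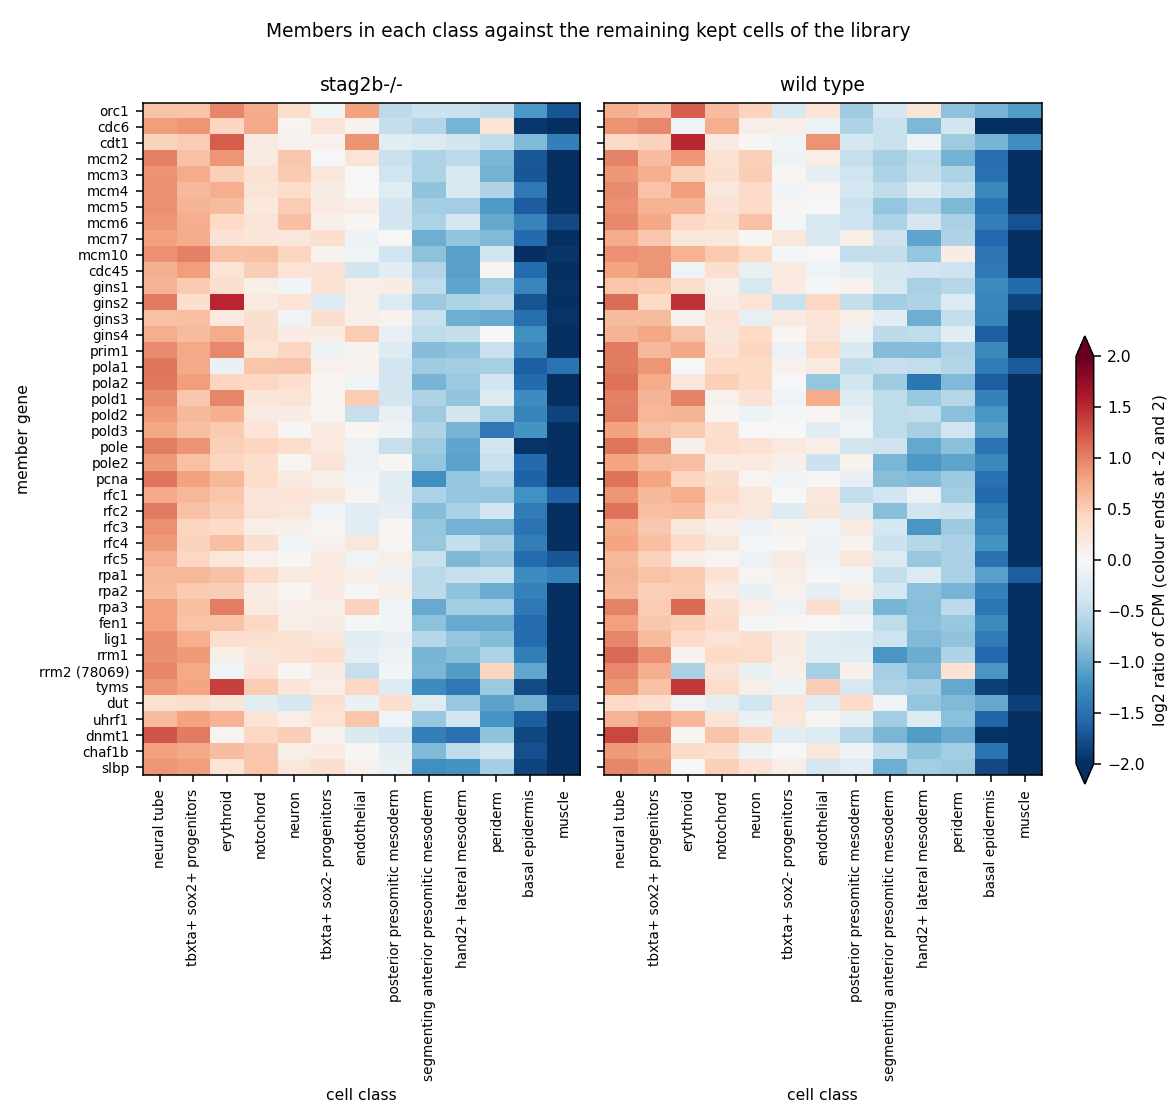
Log2 ratio of CPM of each member (rows) in each cell class (columns, highest class at the left) over the remaining kept cells of the same library, for stag2b-/- (left) and wild type (right); red is higher and blue lower, and rrm2 is row ENSDARG00000078069. Neural tube and tbxta+ sox2+ progenitors are red for all members and muscle and basal epidermis blue, while gins2, tyms and cdt1 stand out in the erythroid class of both libraries.

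The summed members were lower in stag2b-/- in 12 of 13 classes, with an interval below 0, and the interval of the muscle class spanned 0. The difference was furthest from 0 in the segmenting anterior presomitic mesoderm, where cells that will form the next somite express mesp genes, at a log2 ratio of -0.38 (-0.40 to -0.36), and nearest to 0 among the remaining 12 in tbxta+ sox2- progenitors, at -0.09 (-0.11 to -0.08). The muscle ratio was 0.29 without doublet removal and 0.30 with gates on thinned UMIs. In neuron and periderm the sign depended on how cells were gated, as ratios of 0.00035 and 0.18 were found with gates on thinned UMIs. In the segmenting class 7 of 41 members were 1.5-fold lower, and 8.42% of genes were. They included mcm7, at 21.9 CPM in stag2b-/- and 85.4 CPM in wild type, and rfc4, at 31.8 CPM in stag2b-/- and 63.1 CPM in wild type. pcna had 175 CPM in stag2b-/- and 292 CPM in wild-type cells of this class, and at least 1 UMI in 42.2% of stag2b-/- cells (39.3 to 45.2%) and 57.6% of wild-type cells (53.9 to 61.2%) at equal depth, or 61.7% and 78.4% without thinning. rrm1 was higher there, at 81.5 CPM in stag2b-/- and 63.1 CPM in wild type, and so was orc1, at a log2 ratio of 0.34 (0.06 to 0.62), and these were the members above the median gene of this class. Of the 41 members 0 were 1.5-fold higher there (19.6% of genes). The share of cells in this class was 4.95% in stag2b-/- and 4.35% in wild type. Mitosis genes in this class had 2268 CPM in stag2b-/- and 2196 CPM in wild type, a log2 ratio of 0.05. This also lay below the median gene of the class, at 0.16.

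Within the other classes the number of members past 1.5-fold between genotypes varied. Basal epidermis had as many lower members as the segmenting class, 7 of 41, and periderm had 8 of 39. Members lower in stag2b-/- numbered 3 of 41 in tbxta+ sox2+ progenitors (8.11% of genes), 3 of 41 in tbxta+ sox2- progenitors (9.66%), 1 of 41 in notochord (10.2%), 3 of 41 in posterior presomitic mesoderm (7.2%), 2 of 41 in the neural tube (9.66%), 2 of 41 in neuron (8.26%), 1 of 41 in erythroid cells (8.29%) and 7 of 41 in basal epidermis (7.4%). Where some members had under 50 UMIs, they numbered 3 of 30 in muscle (7.56% of genes), 2 of 39 in endothelial cells (7.1%), 5 of 32 in hand2+ lateral mesoderm (8.04%) and 8 of 39 in periderm (6.65%). mcm7 was one of them in every class, and rfc4 passed in 8 of the 13 classes and rfc3 in 7.

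Members 1.5-fold or more higher in stag2b-/- were fewer. orc1 was the 1 such member in tbxta+ sox2- progenitors (20.5% of genes), in posterior presomitic mesoderm (26.4%) and in endothelial cells (14.6%), and cdc6 was the 1 such member in erythroid cells (16.3%), with 537 UMIs in stag2b-/- and 368 UMIs in wild type. In muscle pold1 and rfc1 passed (19.3% of genes) with intervals that spanned 0, and in periderm orc1, cdc6 and pole passed (24.8%), of which the interval of orc1 spanned 0. The count was 0 in tbxta+ sox2+ progenitors (17.4% of genes), notochord (16.6%), neural tube (14.9%), neuron (15.2%), hand2+ lateral mesoderm (13.8%) and basal epidermis (16.7%).

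Across classes the sign of some members was steady. Besides mcm7, the members pcna, rfc3, rfc4, fen1, rpa2, lig1, dut, mcm5, gins1, prim1, pold3 and chaf1b were below 0 in all 13 classes. Of these, pcna had its interval below 0 in all 13. prim1 and pold3 had at least 50 UMIs in only 11 of the classes and chaf1b in 12. The share of all genes that keep their sign in all 13 classes is not given. cdc6 was the member above 0 in all 13, but the median gene of every class also stood above 0. This median ran from 0.07 in hand2+ lateral mesoderm to 0.26 in posterior presomitic mesoderm, so a ratio above 0 could lie below most genes. The lowest class ratio of cdc6, 0.05 in segmenting anterior presomitic mesoderm, lay below the median gene there (0.16). rrm1, the partner of rrm2 in ribonucleotide reductase, was above 0 in 12 classes, with the interval above 0 in 6. Class ratios were not rescaled by TMM. By role, the summed helicase activation genes were lower in stag2b-/- in all 13 classes and the summed licensing genes in 11. The summed polymerase genes were lower in 5, each of these with an interval below 0. The licensing sum includes mcm7, and a sum without mcm7 was not made. Single licensing genes went both ways. orc1 was above 0 in 11 classes, mcm2 in 9 and mcm6 in 8, whereas cdt1 was below 0 in 9 and mcm3 and mcm4 in 10 each. These counts rest on 2 libraries and share them, so the 13 classes are not 13 replicates.

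Within a class the members varied together from cell to cell. In each class and library, cells thinned to 5000 UMIs were ranked by their summed member UMIs without the gene asked about, and the richest of 4 equal parts was set against the poorest, 3073 cells each in stag2b-/- and 2426 cells each in wild type. All 41 members other than rrm2 were at least 1.5-fold higher in the richest cells in both libraries, where 5.97% of 7775 genes were in stag2b-/- and 5.93% in wild type. The median member had a log2 ratio of 2.35 in stag2b-/- and 2.20 in wild type. This describes how the members varied together in the same cells, with no test.

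The members ran from a steep to a shallow end. cdc6 had 2368 UMIs in the richest and 141 in the poorest stag2b-/- cells, a log2 ratio of 4.07, and 1547 and 173 in wild-type cells, a log2 ratio of 3.16. gins2 stood at 3.43 in stag2b-/- and 3.42 in wild type, and slbp, which is needed for histone mRNA in S phase, at 3.35 in stag2b-/- and 3.01 in wild type. At the shallow end cdt1 had log2 ratios of 0.96 in stag2b-/- and 0.84 in wild type, and dut 0.95 in stag2b-/- and 1.10 in wild type. The 2 rows of rrm2 had nearly equal ratios in stag2b-/-, 2.07 (1.93 to 2.21) for ENSDARG00000020711 and 2.12 (2.06 to 2.18) for ENSDARG00000078069. In wild type they differed more. ENSDARG00000020711, with 98 UMIs in the richest and 35 in the poorest cells, stood at 1.49 (0.92 to 2.09). Over all kept wild-type cells, 664 of the 1059 UMIs of this row lay in the 605 cells with the stag2b-/- profile. How far those cells set the wild-type ratio of this row was not tested. ENSDARG00000078069 stood at 2.17 (2.12 to 2.23) in wild type.

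**Figure D5:**
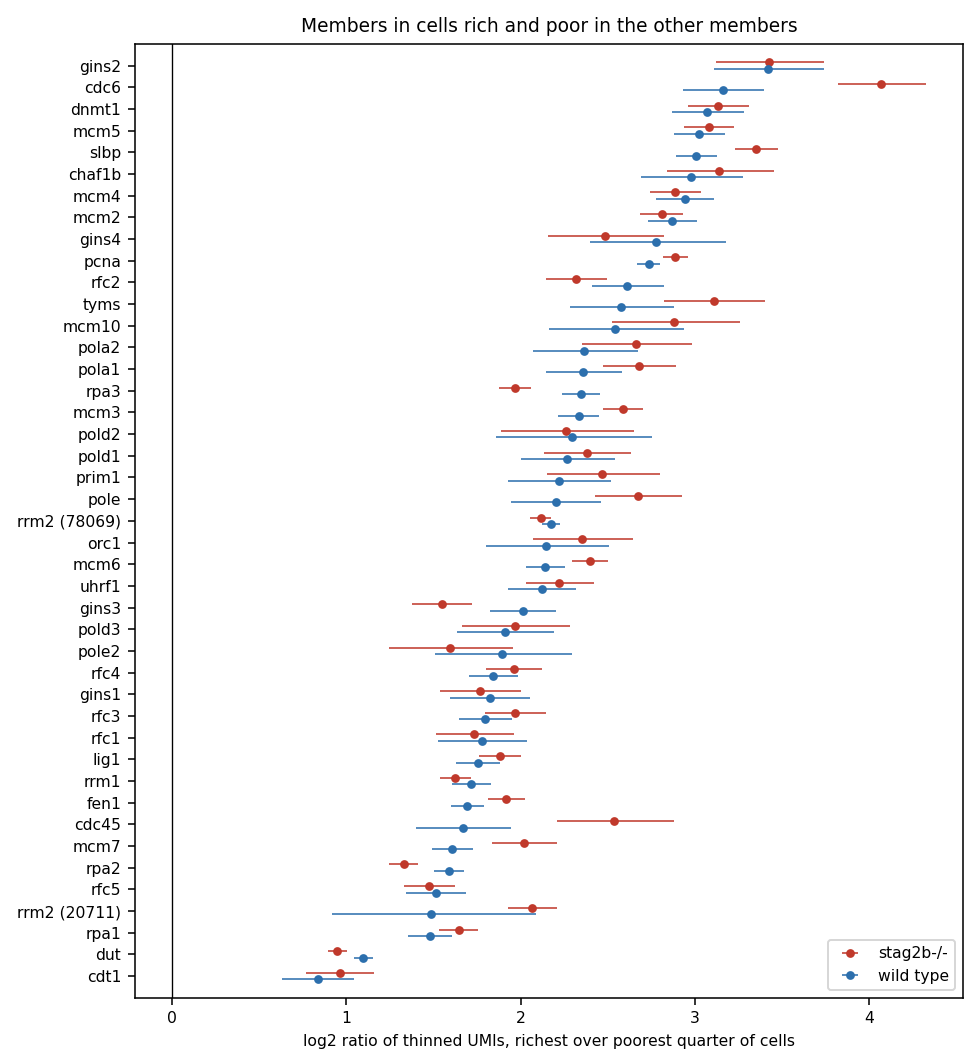
Log2 ratio of thinned UMIs in the cells richest over the cells poorest in the other members, within class and library, for each member row (stag2b-/- red, wild type blue), with 95% counting intervals as bars; rrm2 rows carry the last 5 digits of their identifiers. All points lie above 0, from cdt1 and dut near 1 to gins2 and cdc6 above 3.

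Genes outside the list rose with the members as well. Among the 15 furthest up in both libraries were e2f7, ccne2, zgc:110540, msh6, wdhd1, exo1, mcmbp, esco2, cdca7a, CABZ01072848.1, asf1ba, dck, atad2 and dscc1. e2f7, an E2F family repressor, had 777 UMIs in the richest and 36 in the poorest stag2b-/- cells, a log2 ratio of 4.43 (3.95 to 4.96), and 547 and 18 in wild-type cells, a log2 ratio of 4.93 (4.25 to 5.69). Cyclin E2 (ccne2), which acts at the entry into S phase, stood at 4.68 in stag2b-/- and 4.06 in wild type. The cohesin acetyltransferase gene esco2, which acts on cohesin during S phase, stood at 3.01 in stag2b-/- and 2.94 in wild type. Mismatch repair (msh6) and nucleosome assembly (asf1ba) were also among these roles. Of 42 other replication genes tested, 37 in stag2b-/- and 38 in wild type were at least 1.5-fold higher in the richest cells. Of all 7775 genes tested, 5.97% were so in stag2b-/- and 5.93% in wild type.

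Mitosis genes went both ways, by class. Summed over classes, 18 of 19 were at least 1.5-fold lower in the cells richest in members, in both libraries, where 10.1% of all genes were in stag2b-/- and 15.6% in wild type. In the neural tube the summed mitosis genes had 1345 UMIs in the richest and 5475 in the poorest stag2b-/- cells, a log2 ratio of -2.03 (-2.11 to -1.94), and -1.67 in wild type. Both progenitor classes, both presomitic classes, erythroid and endothelial cells also had lower values in the richest cells, in both libraries. At equal depth 67.2% of stag2b-/- and 67.0% of wild-type cells of the neuron class had at least 1 pcna UMI, so this class was mixed. In the neuron class the order was turned round, with 1521 mitosis UMIs in the richest and 327 in the poorest stag2b-/- cells. The log2 ratio was 2.22 (2.04 to 2.39) in stag2b-/- and 2.79 (2.57 to 3.02) in wild type. Muscle, hand2+ lateral mesoderm, basal epidermis and periderm were higher in the richest cells in both libraries too. In the notochord the ratio was -0.15 (-0.25 to -0.05) in stag2b-/- and 0.08 (-0.01 to 0.16) in wild type. The cells poorest in members thus had more mitosis UMIs than the richest in 7 classes and fewer in 5, in both libraries.

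Ranked by the ratio nearer to 0 of the 2 libraries, the genes lowest in the richest cells, chosen after their values were seen, were the neuronal genes scrt2, neurod1, drgx, stmn1b and gap43. In wild type alone other genes, such as he1.1 (-6.20), lay below gap43 (-4.67). scrt2 had 8 UMIs in the richest and 433 in the poorest stag2b-/- cells, and stmn1b had 8 and 679 in wild-type cells. Of the poorest-quarter UMIs of scrt2, 92.6% in stag2b-/- and 91.2% in wild type lay in the neuron class. Within this class, the poorest cells had a mean of 2.59 member UMIs in stag2b-/- and 1.98 in wild type, and the richest had 40.6 in stag2b-/- and 44.4 in wild type.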

How the data were processed

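Tailbud cells of 1 stag2b-/- and 1 wild-type library were analysed. Per the labels and the study's methods, the authors mapped reads, introns included, to GRCz11 with Cell Ranger 7.1.0. The deposited counts were raw UMIs of called cells, with doublets still in place. The members and lists were chosen with earlier results of these data known.

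Cells with at least 200 genes, no more genes than the 98th percentile of their library and at most 15% mitochondrial UMIs were kept. Doublets were removed as called with Scrublet in Scanpy 1.11.5, at 9.77% of stag2b-/- and 4.65% of wild-type barcodes. UMIs were summed over cells and divided by the sum of all genes (CPM). Ratios carry exact conditional binomial, levels exact Poisson and shares exact Clopper-Pearson 95% intervals, for counting error only. With 1 library a genotype no test was made. A ratio was called at 1.5-fold with at least 50 UMIs over both libraries. The ratio step was tested on simulated data.

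Values are given in full for rrm2, for members past 1.5-fold and for the highest and lowest member of each role, and other genes are the 15 with the largest ratio of richest over poorest cells, taken as the smaller of both libraries, with at least 200 thinned UMIs. One of these 15 is not reported here. TMM library sizes came from edgeR. Alternatives were other filters, scalings, gates, folds and rankings. The split by panel profile was added after the data had been seen. No sequences of the members were used here.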

Additional observations from a re-analysis of the deposited data

Results flagged for a closer look

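The summed rows of rrm2 were higher in stag2b-/- in erythroid cells, at a log2 ratio of 0.09 (0.02 to 0.16), and lower in stag2b-/- in the 12 other classes. This opposite direction flagged the result, and the difference between classes was not tested, with 1 library a genotype. The erythroid ratio was -0.016 as a mean over cells and -0.0070 with gates on thinned UMIs. Among the 12 other classes muscle stood at 0.017 without doublet removal, and muscle at 0.26 and periderm at 0.38 with gates on thinned UMIs.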

How the results depend on the processing

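No paired analysis was possible because each genotype had 1 library. The summed log2 ratio of the 41 members, -0.21, was -0.36 with TMM library sizes, -0.16 with classes weighted by wild-type shares, -0.22 without mitochondrial genes in the total, -0.20 without doublet removal, -0.25 as a mean over cells, -0.25 after thinning and -0.21 without cells of the other library's profile. The median member was at -0.29 with TMM, -0.086 with weighted classes, -0.12 without doublet removal, -0.19 as a mean over cells and -0.18 after thinning. Members lower by the fold numbered 5 with TMM, 9 at a log2 limit of 0.32 (with 1 higher) and 1 at 2-fold. The shares of all genes under these settings are not given, so these counts cannot be set against those of other genes. TMM moved every ratio by -0.15, and 11 of the 14 members above 0 turned negative, among them rrm1 (-0.014), mcm6 (-0.12) and mcm2 (-0.15). As a mean over cells mcm6 was at -0.022 and mcm2 at -0.050, and mcm2 was at -0.034 after thinning. Both rrm2 rows together were at -0.61 with TMM, -0.42 with weighted classes, -0.54 as a mean over cells, -0.54 after thinning and -0.48 without cells of the other profile. ENSDARG00000078069 was at -0.84, -0.65, -0.77, -0.77 and -0.72 under these settings, and ENSDARG00000020711 at 4.06 with TMM and 5.59 without cells of the other profile. The highest over the lowest class was 5.67 in stag2b-/- and 8.18 in wild type without doublet removal, 8.07 in stag2b-/- with gate minimums raised by 1 UMI, 8.15 in stag2b-/- and 9.73 in wild type as a mean over cells, 8.23 in stag2b-/- and 9.32 in wild type after thinning, and 7.99 in stag2b-/- and 11.8 in wild type with gates on thinned UMIs. Those gates also turned the summed members to 0.00035 in neuron and 0.18 in periderm, and both rrm2 rows to 0.26 in muscle, -0.0070 in erythroid and 0.38 in periderm. Both rrm2 rows were at 0.017 in muscle without doublet removal and -0.016 in erythroid as a mean over cells. Over the alternatives, the rank correlation of the class order with the main order was at least 0.93 in stag2b-/- and 0.89 in wild type. The median ratio of the richest over the poorest cells was 1.49 in stag2b-/- and 1.39 in wild type when all cells were divided into 2 parts, and 1.60 in stag2b-/- and 1.45 in wild type when ranked by licensing genes alone. The cause of these moves was not tested. Small classes and 1 library a genotype limit every value.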
